A study of Mus musculus with 16 samples.

Results

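The genes described here encode the MCM2 to MCM7 and GINS1 to GINS4 proteins, the subunits of the replicative DNA helicase other than CDC45. They were chosen by name, and the chromatin at each promoter was read from the window of 5000 bp whose midpoint lay nearest the gene's transcription start site (TSS) and within 650 bp of it, together with the accessible regions inside that window. Of the 10 listed genes, 9 had such a window, out of 38053 distinct windows in the table: Mcm2, Mcm3, Mcm4, Mcm5, Mcm6, Mcm7, Gins2, Gins3 and Gins4. Gins1 had none (the nearest midpoint lay 2103 bp from an end of the gene) and is not analysed here. Among the 9, the midpoint farthest from its TSS was that of Gins2, at 306 bp. The 9 windows held 11 of the 127646 accessible regions.

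The chromatin came from mouse embryonic stem cells and was profiled by ATAC-seq, where an enzyme cuts accessible DNA and tags its ends for sequencing. The groups were cells given 4HT (tamoxifen), which induces depletion of the forkhead transcription factor FOXD3, and cells given ethanol (EtOH), each sorted by DNA content with DAPI into the fractions G1, ES, LS and G2. The labels do not spell out ES and LS. All 8 groups share the genotype FOXD3-iKO, so the ethanol controls carry it too, as well as L2i medium and a treatment time of 24 h. The labels name neither the construct behind the induction nor the number of clones. Each group comprised 2 libraries, 16 in all, and is represented by 1 column of the authors' values, which is taken as pooled and has no SD.

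MCM proteins form a ring that is loaded onto DNA at replication origins in G1 by the origin recognition complex with CDC6 and CDT1. In S phase CDC45 and GINS join the ring to make the active helicase. Genes of both groups are known targets of E2F transcription factors, which switch on replication genes as cells pass from G1 into S. Mouse embryonic stem cells have a short G1 and replicate for most of their cycle.

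The sequences around the TSS show what the promoters share apart from the choice by name. Of the 10 genes, 6 matched an entry of the RefSeq promoter table (build GRCm38.p6, also known as mm10), which gives 250 bases before the TSS and 50 from it on: Mcm2, Mcm3, Mcm5, Mcm6, Mcm7 and Gins3. The motifs searched on both strands were the E2F sites TTTGGCGC, TTTCGCGC, TTTCCCGC and TTTGCCGC, the CCAAT box CCAAT, the GC box GGGCGG and the TATA box TATAAA. All 6 sequences are printed 5′ to 3′ in the direction of transcription because 5 of them hold an E2F site and Mcm2 holds none. Capitals mark E2F sites and CCAAT boxes on either strand.

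Mcm2 (chr6:88898731-88899030, minus strand): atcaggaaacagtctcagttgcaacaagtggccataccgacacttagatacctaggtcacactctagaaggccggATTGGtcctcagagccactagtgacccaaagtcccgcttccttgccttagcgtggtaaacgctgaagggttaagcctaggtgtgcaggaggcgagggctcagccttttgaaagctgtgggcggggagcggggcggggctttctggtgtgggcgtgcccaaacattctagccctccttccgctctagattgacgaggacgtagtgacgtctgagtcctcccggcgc
Mcm3 (chr1:20820263-20820562, minus strand): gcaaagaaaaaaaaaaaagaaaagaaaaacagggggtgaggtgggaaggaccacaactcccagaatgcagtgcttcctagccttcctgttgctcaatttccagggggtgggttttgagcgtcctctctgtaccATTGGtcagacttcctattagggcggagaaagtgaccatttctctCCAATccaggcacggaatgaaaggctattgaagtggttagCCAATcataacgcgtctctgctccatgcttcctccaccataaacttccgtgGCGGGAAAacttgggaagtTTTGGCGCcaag
Mcm5 (chr8:75109259-75109558, plus strand): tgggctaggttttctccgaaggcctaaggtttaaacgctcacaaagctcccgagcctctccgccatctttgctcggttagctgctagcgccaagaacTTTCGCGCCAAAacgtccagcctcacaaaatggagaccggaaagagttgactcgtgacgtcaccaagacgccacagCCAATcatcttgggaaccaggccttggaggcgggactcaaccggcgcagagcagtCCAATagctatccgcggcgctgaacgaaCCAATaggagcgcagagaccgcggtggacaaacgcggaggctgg
Mcm6 (chr1:128359656-128359955, minus strand): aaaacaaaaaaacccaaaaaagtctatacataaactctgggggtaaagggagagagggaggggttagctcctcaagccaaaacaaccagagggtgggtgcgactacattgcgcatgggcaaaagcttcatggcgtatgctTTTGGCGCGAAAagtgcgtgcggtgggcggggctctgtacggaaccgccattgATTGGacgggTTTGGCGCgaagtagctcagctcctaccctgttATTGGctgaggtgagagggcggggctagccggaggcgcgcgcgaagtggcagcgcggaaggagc
Mcm7 (chr5:138171834-138172133, minus strand): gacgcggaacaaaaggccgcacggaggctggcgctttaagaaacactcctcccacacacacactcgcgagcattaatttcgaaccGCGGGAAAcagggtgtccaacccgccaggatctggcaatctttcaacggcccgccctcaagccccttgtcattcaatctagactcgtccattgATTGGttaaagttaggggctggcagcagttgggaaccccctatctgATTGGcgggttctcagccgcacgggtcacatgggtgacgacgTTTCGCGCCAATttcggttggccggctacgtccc
Gins3 (chr8:95633309-95633608, plus strand): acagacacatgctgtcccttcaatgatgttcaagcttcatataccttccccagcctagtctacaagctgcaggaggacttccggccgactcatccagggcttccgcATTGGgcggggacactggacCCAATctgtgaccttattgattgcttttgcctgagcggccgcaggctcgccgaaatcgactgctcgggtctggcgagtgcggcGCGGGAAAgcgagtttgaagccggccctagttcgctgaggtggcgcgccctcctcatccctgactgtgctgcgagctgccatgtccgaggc

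An E2F site was present in 5 of the 6 promoters, against 2.85% of the 21263 promoter entries of protein-coding genes of the same length. The table has 7 entries for these 6 genes: a further Mcm7 entry, with its TSS at 138171266, is not the TSS used for the window, held no E2F site and is not counted or printed here. Mcm6 held 3 matches, which start 110, 106 and 47 bases upstream of the TSS, and the first pair overlap. Mcm5 held an overlapping pair, 153 and 149 bases upstream. Mcm3 held 2 matches downstream of the TSS, at 19 and 38 bases. In Mcm7 there was one match 165 bases upstream and one 16 bases downstream, whose last base is also the first base of a CCAAT box. The single match of Gins3 lay 41 bases upstream. Among 41 other replication genes with a promoter entry, 15 (36.6%) held an E2F site, Orc1, Cdc6, Cdt1 and Clspn among them.

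CCAAT boxes were present in all 6 promoters, against 38.2% of protein-coding promoters, and GC boxes in 5 of 6, against 46.2%. Mcm5 was the one without a GC box. None held a TATA box, which 12.6% of the protein-coding promoters did. G and C made up 48.7% (Mcm3) to 60.0% (Gins3) of the bases, around the protein-coding median of 56.3%, and 61.3% in the uncounted Mcm7 entry. The ratio of observed to expected CpG was above the protein-coding median of 0.567 in 5 of the 6, at 0.652 (Mcm2) to 1.003 (Mcm5), and 0.452 at Mcm3. All 10 E2F matches and 13 of the 14 CCAAT matches lay inside the accessible region that spans the TSS. The exception was the CCAAT box of Mcm2, 175 bases upstream. These matches are letters in a window of 300 bases and do not show binding.

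The promoters of all 9 genes were more accessible than most. A level is given as a multiple of the 1-read value, the smallest signal of a column, averaged over the 8 columns. The 9 windows had a median level of 2.19, against 1.35 for the 17947 windows of protein-coding genes with a read in every column. All 9 lay above the upper quartile of those windows (1.61) and 8 above their 90th percentile (1.99). The one below it was Gins3, at 1.76, and the next, Mcm6, stood just above it at 1.993.

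Among the GINS genes, Gins2, which encodes the subunit also called PSF2, had a level of 4.40 and ranked 49th from the top of the protein-coding windows. Its values over the 8 columns in this unit, 3.63 to 5.49, did not overlap those of any other member. In the signal as deposited, its lowest column (0.404, 4HT ES) lay just below the highest column of Gins4 (0.406, 4HT G1). Gins4, which encodes SLD5, stood at 2.39 (1.65 to 2.98) and Gins3, which encodes PSF3, at 1.76 (1.47 to 2.14). The GINS genes thus held both the highest and the lowest window of the set.

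The MCM genes lay closer together, with a median of 2.17. Mcm5, whose protein forms with MCM2 the gate through which DNA enters the ring, stood at 2.59 (2.15 to 3.19). Mcm7 followed at 2.46 (2.12 to 3.02), Mcm3 at 2.19 (1.65 to 3.02), Mcm2 at 2.16 (1.85 to 2.66), Mcm4 at 2.10 (1.57 to 2.33) and Mcm6 at 1.99 (1.56 to 2.61). Below Gins2, the ranges of every pair of neighbours in the order of all members overlapped, so the order of neighbours is not resolved by these ranges. Farther apart in that order, the lowest column of Mcm5 (2.15, 4HT G1) lay just above the highest of Gins3 (2.14, EtOH G2). In the signal as deposited these genes overlapped, with a lowest value of 0.221 (4HT ES) at Mcm5 and a highest of 0.247 (EtOH ES) at Gins3.

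**Figure D1:**
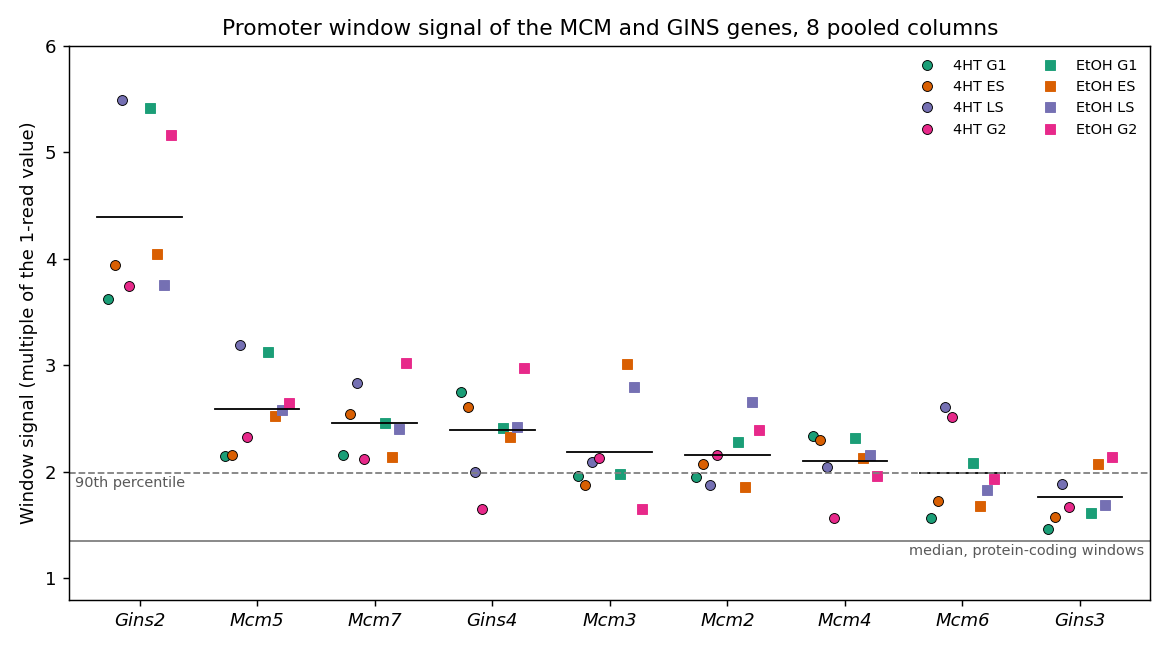
Signal of each promoter window as a multiple of the 1-read value (y axis, linear) for the 9 genes in order of level. Circles are 4HT columns, squares EtOH columns, colours the fractions, and black bars the mean over 8 columns; grey lines mark the median (1.35) and the 90th percentile (1.99) of protein-coding windows. In this unit Gins2 stands apart at 3.63 to 5.49, and among the other 8 genes the ranges of neighbours overlap.

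Some of these windows serve more than 1 gene. The TSS of Prkdc, which encodes the catalytic subunit of the DNA-dependent protein kinase, lay 44 bp from that of Mcm4, and the TSS of Ap4m1, which encodes a subunit of an adaptor complex, 138 bp from that of Mcm7. The predicted genes Gm10614 and Gm39141 began 102 bp from Gins2 and 112 bp from Gins4. At these 4 members the signal of the member and of its neighbour cannot be told apart.

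The levels of other replication genes were lower on the whole. Of a list of 48 genes for origin recognition, licensing, firing, the polymerases and their clamp, 46 had a window, and all 46 had a read in every column. Their median level was 1.62, with 42 above the protein-coding median and 23 above the upper quartile, against 9 of 9 members for both. Pcna, the sliding clamp, led the list at 2.79 and Orc6, a subunit of the origin recognition complex, followed at 2.74. These were the 2 list genes above every member other than Gins2. Cdc45, the partner of MCM and GINS in the helicase, stood at 2.17, close to the member median, and Mtbp, which takes part in origin firing, was the lowest at 1.28. These medians are descriptions of the 8 columns, with no test.

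An accessible region spanned the TSS of all 9 members, whereas 61.1% of protein-coding genes with a window had a region over their TSS. Of the list of other replication genes, 43 of 46 had one. The 9 regions had a median level of 3.96, against 1.98 for the 9179 regions over a protein-coding TSS that had a read in every column. All 9 lay above that median and 8 above the upper quartile of 2.75.

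The Gins2 region (chromosome 8, 120588638 to 120589691, mm10) had the highest level at 11.0 and ranked 48th of the 38863 regions with a read in every column. The other GINS regions lay on the same chromosome, with Gins4 (23237250 to 23238132) at 4.37 and Gins3 (95633265 to 95634148) at 2.46. The Gins3 region was the lowest of the set and the one under the upper quartile.

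Among the MCM genes, the region of Mcm5 (chromosome 8, 75109001 to 75109838) stood at 4.80, that of Mcm3 (chromosome 1, 20820090 to 20820592) at 4.07 and that of Mcm2 (chromosome 6, 88898536 to 88898949) at 3.96. Mcm7 (chromosome 5, 138170952 to 138172517) stood at 3.80, Mcm4 (chromosome 16, 15636957 to 15638076) at 3.38 and Mcm6 (chromosome 1, 128358881 to 128360151) at 2.92. The Mcm3 and Mcm2 regions were the narrowest, at 503 and 414 bp, although their levels exceeded those of the wider regions of Mcm7 (1566 bp) and Mcm6 (1271 bp). The median width was 884 bp, close to the 818 bp of all regions over a protein-coding TSS.

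The position of the regions differed among members. They reached 169 (Mcm2) to 676 (Mcm4) bp upstream and 222 (Mcm3) to 931 (Mcm7) bp downstream of the TSS. The region extended farther downstream than upstream at Mcm2, Mcm6, Mcm7 and Gins3, and farther upstream at the other 5. Only Mcm4 and Mcm5 had another region in the window. That of Mcm5, at -905 to -606 bp from the TSS, had a level of 2.29. That of Mcm4, 525 to 652 bp downstream, had a read in 4 of the 8 columns, ES and G2 of both treatments, and was not tested.

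**Figure D2:**
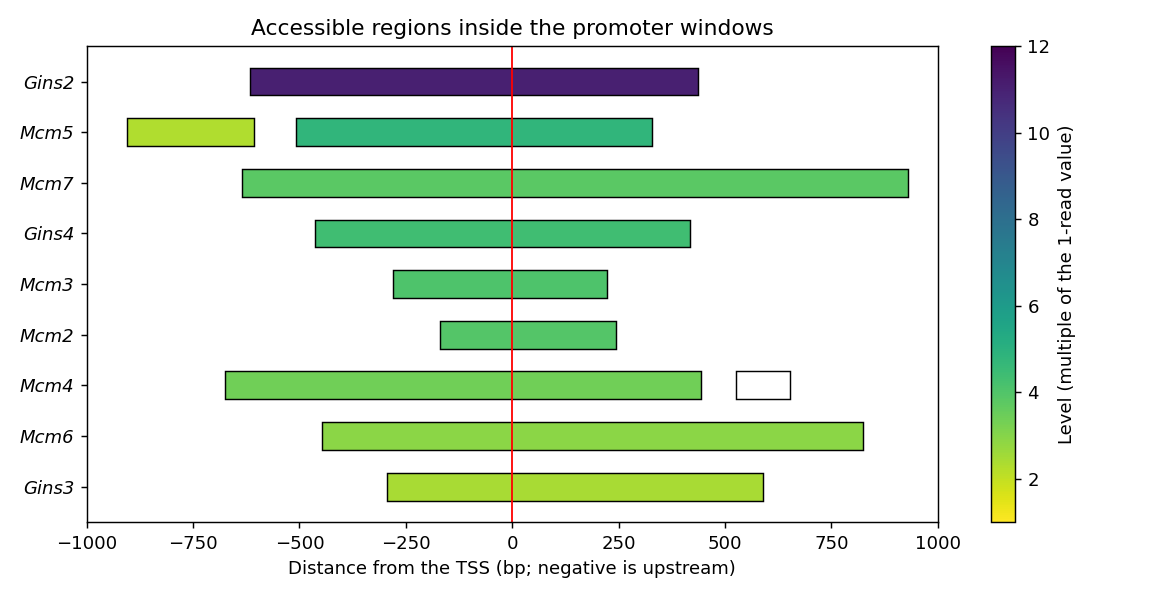
Extent of the 11 accessible regions in the 9 promoter windows, as distance from the TSS in bp (x axis, negative upstream), with genes in order of window level. Bars are regions, coloured by level; the open bar at Mcm4 had a read in 4 of 8 columns, and the red line is the TSS, which lies inside 1 region of every gene.

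Facts of the whole series limit these values. The implied depth per column was 6.78 to 11.2 M reads, lowest in 4HT G1, whose 1-read value of 0.147 was therefore the highest of the 8. The signal is an average over the bases that hold a read, so a low window cannot fall below the 1-read value, losses are understated, and a shallow column reads higher. Embryonic stem cell markers had a median level of 1.87 over 10 windows (1.25 to 2.73), while fibroblast markers had 1.28 over 9 windows (1.11 to 1.65). The ranges of these lists overlapped. The Foxd3 window had a signal of 0.141 to 0.243 in 4HT and 0.110 to 0.195 in EtOH; which exon, if any, is deleted is not in the labels, so this does not check the depletion. In bulk samples, fewer accessible cells and less accessibility per cell cannot be told apart.

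FOXD3 depletion was compared with ethanol treatment over the 4 fractions, and no member passed the test. The values that follow are the signal as deposited, in the order G1, ES, LS and G2. At Mcm2 the window had a signal of 0.288, 0.213, 0.169 and 0.243 in 4HT, against 0.229, 0.221, 0.325 and 0.214 in EtOH. LS was thus the lowest 4HT fraction and the highest EtOH fraction. At Mcm3 the signal was 0.289, 0.192, 0.189 and 0.240 in 4HT, against 0.198, 0.360, 0.342 and 0.147 in EtOH. The EtOH columns of ES and LS stood above those of G1 and G2 and above the 4HT columns of the same fractions.

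Mcm4, Mcm6 and Mcm7 encode subunits that together can unwind DNA in vitro. The Mcm4 window had a signal of 0.344, 0.236, 0.185 and 0.176 in 4HT, against 0.233, 0.254, 0.265 and 0.175 in EtOH, with G2 the lowest fraction of both treatments. The Mcm6 window had 0.231, 0.177, 0.236 and 0.284 in 4HT, against 0.209, 0.200, 0.224 and 0.173 in EtOH. The Mcm7 window had 0.319, 0.261, 0.255 and 0.239 in 4HT, against 0.247, 0.256, 0.294 and 0.271 in EtOH. As deposited, Mcm6 was the one member whose highest 4HT column was G2, whereas in EtOH its G2 column was the lowest. After centring along the level, Gins3 was also highest in 4HT G2. At Mcm5 the signal was 0.317, 0.221, 0.288 and 0.263 in 4HT, against 0.313, 0.301, 0.316 and 0.237 in EtOH.

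For the GINS genes, the Gins2 window had a signal of 0.535, 0.404, 0.496 and 0.422 in 4HT, against 0.543, 0.483, 0.460 and 0.462 in EtOH. Both treatments were highest in G1 as deposited, but after centring along the level the highest 4HT column was LS. The Gins3 window had 0.216, 0.162, 0.170 and 0.188 in 4HT, against 0.162, 0.247, 0.207 and 0.191 in EtOH. The Gins4 window had 0.406, 0.268, 0.181 and 0.186 in 4HT, against 0.242, 0.277, 0.296 and 0.266 in EtOH. The 4HT values of Gins4 thus ranged widely while its EtOH values lay close together.

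The 4HT and EtOH columns overlapped at 9 of 9 members. 4HT G1 was the highest 4HT column at 8 of the 9, and it is also the shallowest column; after centring along the level it was the highest 4HT column at 4 of the 9. The part of depth in these values was not tested beyond that. The counts of overlap and of highest columns were not made over all tested windows, so they describe the members only.

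With centred values, limma called 0 of 9 member windows between 4HT and EtOH (smallest adjusted p 0.971, 0 at an unadjusted p under 0.05), against a background of 0.0131% of the 15323 tested windows. The median log2 difference of the members was -0.07, with 2 of 9 above 0, against 0.00 and 50.2% above 0 for all tested windows. This direction was not stable, since the median was 0.01 with 5 of 9 above 0 without the G2 fraction and close to 0 with 4 of 9 without LS. The values ran from -0.11 (SE 0.12) at Mcm3 to 0.12 (SE 0.10) at Mcm6, so the widest difference was about the size of its SE. The other replication genes had a median of -0.03, with 13 of 44 tested windows above 0 and 0 called. The widest list values were 0.26 (SE 0.09, adjusted p 0.902) at Clspn, an adaptor of the replication checkpoint, and -0.21 (SE 0.11, adjusted p 0.954) at Cdc45. Rpa2, a subunit of the single-strand binding protein, stood at 0.14 and Tipin, which protects the fork, at -0.19.

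The TSS regions gave the same count of calls. Of the 9, limma called 0 (smallest adjusted p 0.934, 0 at an unadjusted p under 0.05), as it did of all 11010 tested regions (0%, 597 at an unadjusted p under 0.05). The median log2 difference was -0.07, with 1 of 9 above 0, against 0.00 over all tested regions. The count was 4 of 9 without the ES fraction and 3 of 9 without G2. The widest was at Mcm2, where the signal was 0.386, 0.387, 0.281 and 0.353 in 4HT, against 0.530, 0.288, 0.585 and 0.591 in EtOH. The 4HT column was lower in G1, LS and G2 and higher in ES, and the fitted difference was -0.35 (SE 0.21, adjusted p 0.934).

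Differences within single fractions have no test, since each rests on 1 pair of pooled columns. Of the 9 member windows, the 4HT minus EtOH difference was above 0 in 6 for G1, and in 4 for each other fraction. No member had the same sign in all 4 fractions, which 12.9% of tested windows did. In the same order of fractions, Mcm3 stood at 0.17, -0.55, -0.45 and 0.39. Gins4 stood at 0.36, 0.06, -0.32 and -0.43. Mcm2 was near 0 in G1, ES and G2 (0.02, 0.06 and 0.06) and at -0.49 in LS. Mcm6 stood at -0.12, -0.02, 0.22 and 0.42.

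At Mcm3, Gins4 and Gins2 the TSS region had the same signs as the window in every fraction. The Mcm3 region stood at 0.098, -0.59, -0.41 and 0.47, and the Gins4 region at 0.38, 0.05, -0.69 and -0.76. At Gins2 the window stood at -0.17, -0.09, 0.28 and -0.15 and the region at -0.19, -0.10, 0.09 and -0.09. The window holds the region, so the 2 are not independent. The Gins4 region had a signal of 0.728, 0.448, 0.302 and 0.276 in 4HT, against 0.508, 0.455, 0.584 and 0.556 in EtOH, and the 4HT values of LS and G2 lay under every EtOH value.

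The other TSS regions also crossed between treatments. The Mcm3 region had a signal of 0.452, 0.356, 0.444 and 0.400 in 4HT, against 0.394, 0.619, 0.657 and 0.273 in EtOH, with ES and LS the highest EtOH columns as in the window. The Mcm6 region had 0.250, 0.249, 0.401 and 0.425 in 4HT, against 0.351, 0.234, 0.288 and 0.284 in EtOH, so that 4HT was higher in LS and G2 and lower in G1. The Mcm7 region, which also covers the start of Ap4m1, had 0.418, 0.431, 0.422 and 0.334 in 4HT, against 0.363, 0.363, 0.516 and 0.433 in EtOH. Its differences of 0.09, 0.26, -0.17 and -0.25 in G1, ES, LS and G2 changed sign between ES and LS.

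The Mcm5 region had a signal of 0.568, 0.335, 0.609 and 0.549 in 4HT, against 0.4999, 0.556, 0.613 and 0.450 in EtOH, and ES was the one fraction in which 4HT stood far below EtOH (-0.52). The smaller region upstream of Mcm5 had 0.228, 0.103, 0.307 and 0.221 in 4HT, against 0.259, 0.317, 0.199 and 0.320 in EtOH. Its 4HT ES value equals that of 1 read, and its fitted difference was -0.28 (SE 0.24, adjusted p 0.955). The Gins3 region had 0.295, 0.192, 0.290 and 0.245 in 4HT, against 0.154, 0.377, 0.247 and 0.332 in EtOH, where G1 was the lowest column and ES the highest.

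**Figure D3:**
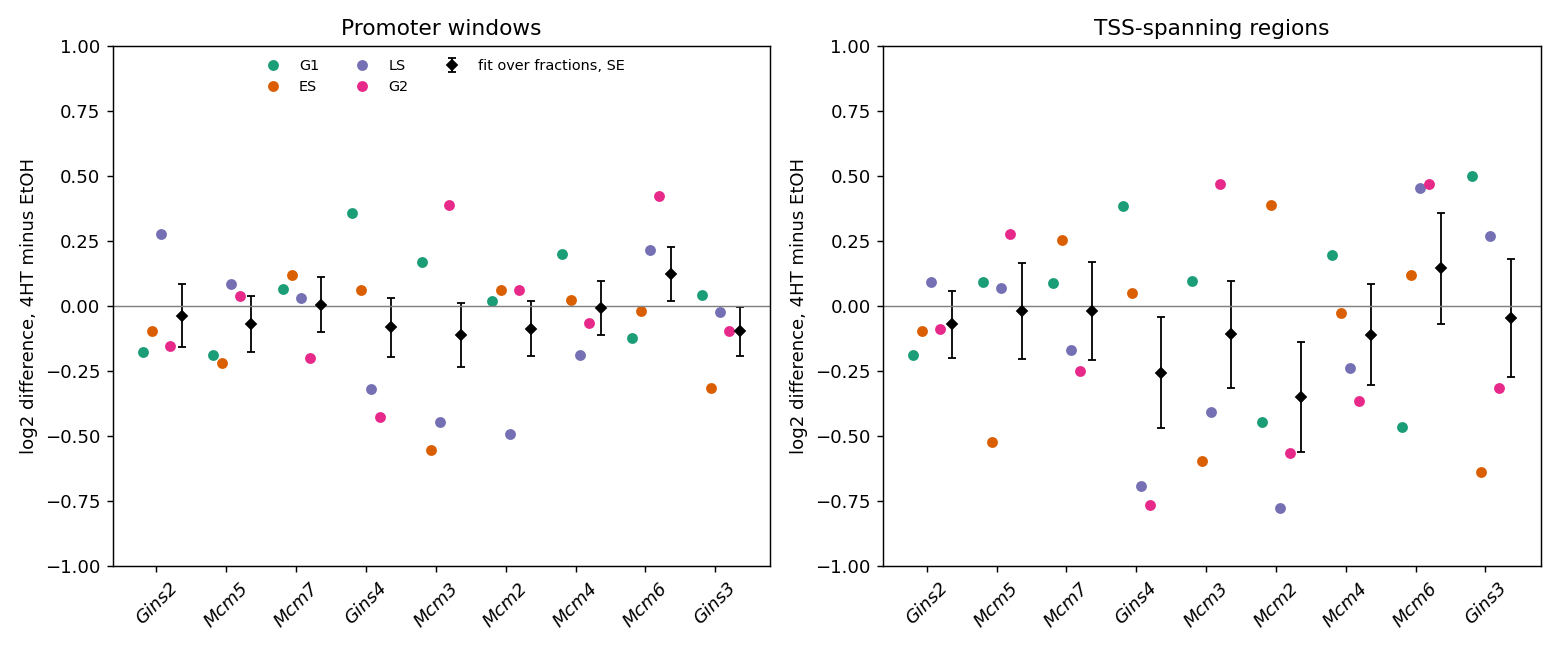
Difference between 4HT and EtOH in log2 of the centred signal (y axis) for promoter windows (left) and TSS regions (right). Coloured points are single fractions and black diamonds the fit over 4 fractions with its SE. Points of every gene lie on both sides of 0, and Mcm3 and Gins4 spread the widest among windows.

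The cell cycle fractions were then compared, averaged over 4HT and EtOH, and again no member passed. In ES against G1, limma called 0 of 9 windows (smallest adjusted p 0.903, 0 at an unadjusted p under 0.05; 0.0196% of all tested windows were called). The median log2 difference was -0.07 with 2 of 9 above 0. Mcm3 stood highest at 0.18 (SE 0.17), but its values were -0.18 in 4HT and 0.54 in EtOH. Gins3 stood at 0.13 (SE 0.13) and the remaining 7 between -0.11 (Mcm5) and a value just under 0 (Mcm7).

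In LS against G1, 0 of 9 were called (smallest adjusted p 0.718, 0 at an unadjusted p under 0.05; 0.0718% of all). The median was -0.06 with 3 of 9 above 0. Gins4 stood lowest at -0.32 (SE 0.16), with -0.66 in 4HT and 0.02 in EtOH, and Mcm4 at -0.25 (SE 0.15), with -0.44 in 4HT and -0.05 in EtOH. At Gins2 the order of the treatments was the other way round, with 0.02 in 4HT and -0.44 in EtOH.

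In G2 against G1, 0 of 9 were called (smallest adjusted p 0.683; 0.0457% of all), and 1, Mcm4, had an unadjusted p under 0.05, as did 5.64% of all tested windows. The median was -0.19 with 2 of 9 above 0, whereas all tested windows had a median of 0.00. Mcm4 stood at -0.43 (SE 0.15, adjusted p 0.683), with -0.56 in 4HT and -0.30 in EtOH. Gins4 stood at -0.32 (SE 0.16), with -0.71 in 4HT and 0.08 in EtOH. Gins2 and Mcm5 were lower in G2 in both treatments, at -0.21 in 4HT and -0.23 in EtOH and at -0.09 in 4HT and -0.32 in EtOH. In all, 5 of 9 members were below 0 in both treatments, and Gins3 was the 1 above 0 in both (0.01 in 4HT and 0.15 in EtOH). The share of all tested windows below 0 in both treatments was not computed, so this count has no background. G2 was also deeper than G1 in both treatments (8.87 against 6.78 M reads in 4HT, 11.2 against 9.96 M in EtOH), and a shallow column reads higher. The part of depth in this contrast was not tested beyond centring. Whether the treatments differ in these contrasts could not be tested with 1 column a group.

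The mean of ES and LS was also set against the mean of G1 and G2. Of the 9 windows 0 were called (smallest adjusted p 0.737, 0 at an unadjusted p under 0.05; 0.0522% of all), and the median was 0.01 with 5 of 9 above 0. Mcm3 was highest at 0.22 (SE 0.12), with -0.17 in 4HT and 0.61 in EtOH, and the other 8 lay between -0.05 (Mcm2) and 0.05 (Mcm4). The replication genes of the list had medians of 0.01 in this contrast and in ES against G1, 0.00 in LS against G1 and -0.01 in G2 against G1, with 0 of 44 called in each. Among them Rfc2, a subunit of the clamp loader, was lowest in ES (-0.35, SE 0.12, adjusted p 0.492) and in LS (-0.29), and Pole, the leading-strand polymerase, highest in ES (0.30). Prim2, a primase subunit, was highest in LS (0.30) and Lig1, the ligase that joins Okazaki fragments, highest in G2 (0.33), where Mcm10, which helps to activate the helicase, was lowest (-0.25).

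**Figure D4:**
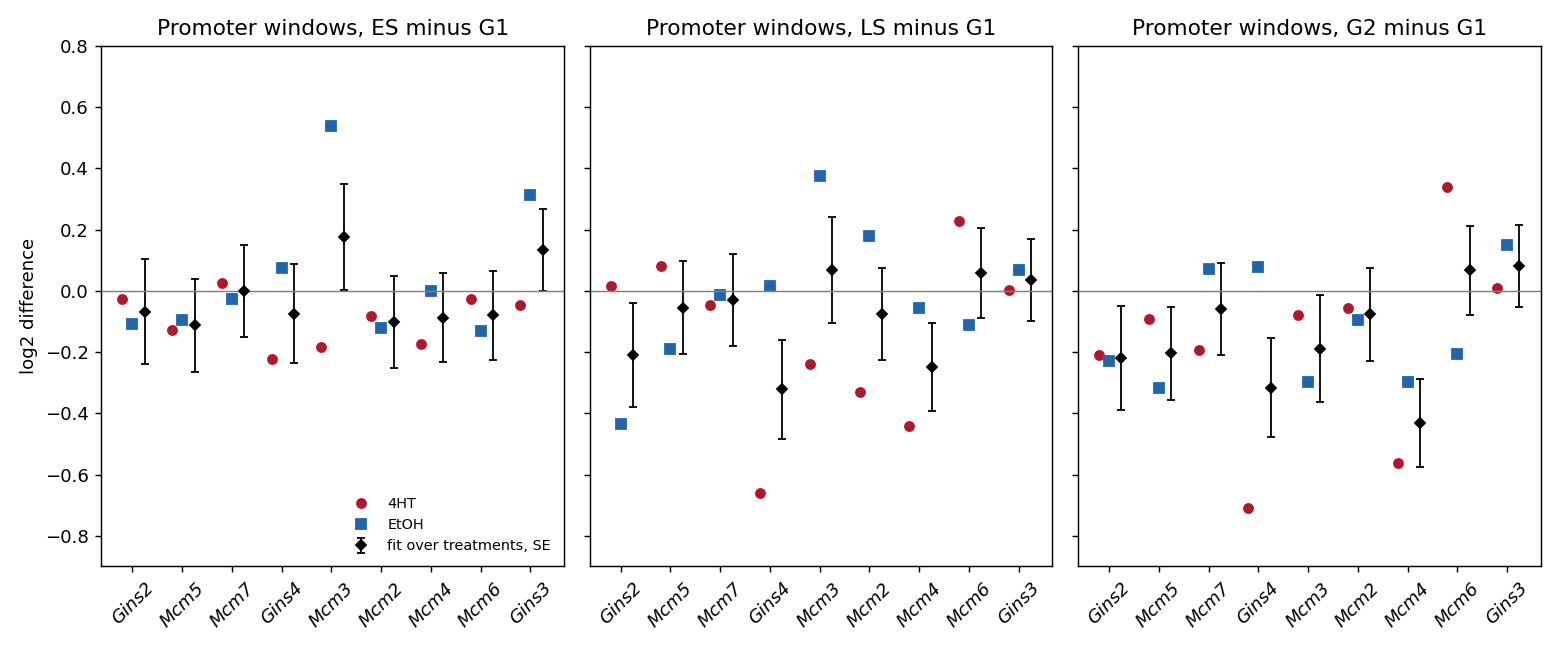
Difference in log2 of the centred signal (y axis) between ES, LS or G2 and G1 for the 9 promoter windows. Red circles are 4HT, blue squares EtOH and black diamonds the fit over both with its SE. In G2 against G1, 7 of 9 diamonds lie below 0, Mcm4 lowest at -0.43.

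Over the TSS regions, 0 of 9 were called in ES against G1 (smallest adjusted p 0.824; 0 at an unadjusted p under 0.05; 0% of 11010), in LS against G1 (0.629; 1, Gins2; 0%), in G2 against G1 (0.836; 1, Mcm4; 0.0182%) and in the mean of ES and LS against that of G1 and G2 (0.778; 0; 0.0182%). Of all tested regions, 7.28% in LS against G1 and 5.90% in G2 against G1 had an unadjusted p under 0.05. The median log2 difference of the 9 regions was -0.19 in ES against G1, with 3 of 9 above 0. It was 0.01 with 5 of 9 in LS, -0.17 with 2 of 9 in G2, and -0.05 with 3 of 9 in the contrast of means. In LS and in the contrast of means, the median thus had the other sign from that of the windows. The Gins2 region had a signal of 1.25, 0.945, 1.16 and 1.12 in 4HT and 1.47, 1.08, 1.14 and 1.32 in EtOH, with G1 the highest fraction of both treatments. Its fitted difference of LS against G1 was -0.42 (SE 0.18, adjusted p 0.629). The Mcm4 region had 0.530, 0.339, 0.319 and 0.238 in 4HT and 0.416, 0.365, 0.421 and 0.345 in EtOH, with G2 the lowest of both. Its difference of G2 against G1 was -0.63 (SE 0.27, adjusted p 0.836).

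The spread over the columns differed among members. The SD of the centred log2 signal over the 8 columns was 0.26 at Mcm3, above that of 99.1% of tested windows, 0.23 at Gins4 (97.7%) and 0.19 at Mcm4 (92.8%). It was 0.07 at Mcm7, above that of 5.72% of the windows, and 0.10 (Gins3) to 0.15 (Mcm6) at the other 5. These shares are over all tested windows and are not matched for level. In G2 against G1, the 90th percentile of the size of a difference was 0.22 over all tested windows. It was 0.25 over windows with a level of 1.6 or more. Pearson r over the 8 columns between a member and the mean of the other 8 ran from -0.59 (Mcm6) to 0.81 (Mcm4). Among 10078 other windows of named protein-coding genes, those most like the mean profile of the 9 members were Taf4b (r 0.966), Mis12 (0.947), Slc35f6 (0.945), Amz2 (0.944) and Pramel13 (0.923). These correlations rest on 8 columns that share depth and scaling. The 5 genes named were picked as the highest among 10078 windows, which favours high values of r, and were not tested.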

How the data were processed

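ATAC-seq coverage was analysed from 2 tables that the authors deposited, one of accessible regions and one of windows of 5000 bp around TSSs. Both hold a coverage signal scaled to library size, per the file headers and names, in 8 columns, 1 for each treatment and fraction, with no replicate number. The submitters' processing notes list mm10, featureCounts and DESeq2 without saying what each was used for; the aligner, the coverage program and the pooling of the 2 libraries are not given in the sources used here. Intervals without a read are blank and the smallest value of each column recurs many times, so the signal was read as an average over covered bases and the smallest value as 1 read; 34 repeated window rows were dropped.

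TSSs came from the RefSeq promoter table, and otherwise from the end of the gene with a window within 650 bp (Mcm4, Gins2 and Gins4). Genes outside that table with a window at both ends were left out of the background. Tests covered the 15323 windows with a mean level of 1.3 or more and the 11010 regions with 2 or more, if all 8 columns held a read. This filter passed all 9 member windows and 10 of 11 member regions, and drops any interval that is empty in some column. The signal was taken as log2(signal + 0.1), which understates folds of low intervals, and centred by cyclic loess. A limma 3.58.1 model (R 4.3.3) with terms for treatment and fraction, an intensity trend and robust moderation was fitted to all columns at once and left 3 residual degrees of freedom. Benjamini-Hochberg adjusted p at 0.05 over all tested intervals was the threshold. Fractions repeat the treatment contrast and treatments the fraction contrasts, so a p-value reflects how pooled columns scatter. It says nothing of scatter between cultures, and no contrast within 1 fraction and no interaction had a test. Moderation draws the variance of each interval toward the trend over all tested intervals. The SE and p of a member therefore also reflect the scatter of other intervals. Where a member scatters more than these, as Mcm3 does, its SE can be smaller than its own columns would give. The pipeline was tested on simulated data.

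All 10 members were named, with list genes at the extremes of each contrast. The 5 most alike windows were taken among protein-coding genes with symbols other than Gm and Rik names. The list genes and promoter positions named beyond this rule were chosen after their values were seen. The members and lists were chosen with earlier results of these data known.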

Additional observations from a re-analysis of the deposited data

How the results depend on the processing

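No member window or region was called under any alternative run (935 recomputed member values, smallest adjusted p 0.492). The sign changed in 33 of them, in none where the difference exceeded its SE. In G2 against G1, 2 of 9 windows were above 0 in every setting run; in 4HT against EtOH, 2 of 9 became 5 of 9 without the G2 fraction and 4 of 9 without the LS fraction, and in LS against G1 median centring gave 5 of 9 in place of 3. At Mcm4 the G2 value was -0.67 with the correction for bases without a read and -0.20 with a pseudocount of 0.5, which shrinks the scale. The Gins4 treatment difference was -0.23 without G1 and 0.04 without G2, that of Mcm3 -0.27 without G2 and 0.03 without ES, and that of the Mcm2 TSS region -0.60 without ES.

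Counts over all windows moved more. For 4HT against EtOH (2 called) they were 0 with no filter, with no centring and without G2, 1 with the higher level minimum and without G1, and 4 without ES. For ES against G1 (3) they were 1 with no filter and 0 with no centring. For LS against G1 (11) they were 4 with no filter, 7 with the higher minimum and without G2, and 0 with no centring. For G2 against G1 (7) they were 4 with no centring and with the correction. For regions in ES against G1 (0) they were 3 with the higher minimum and 1 with no centring or median centring. The cause was not tested. No paired analysis was possible because the columns carry no replicate numbers, and for the same reason no replicate could be left out. Depth limits the windows of Gins3, Mcm6 and Mcm4, which stood at 1.47, 1.56 and 1.57 times the 1-read value in their lowest columns, where a loss of reads is hidden by the average.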
